A study of Brassica rapa with 28 samples.

Results

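Leaves of Brassica rapa that had spent 72 h under foil and then 24 h back in the light were compared with leaves of the same plants that had never been covered. The comparison used 14 of the 28 libraries of the series, the 7 recovery libraries and the 7 libraries called 24hr, taken as 7 pairs. A pair is the recovery and the 24hr library of one plant pool, a pool being leaf punches of 28 mm2 from 3 plants combined into 1 biological replicate. The wild type was the line R-o-18, with 4 pools numbered 3 to 6, and the mutant was BrphyB-3, a line in the same R-o-18 background with a mutated phytochrome B gene, with 3 pools numbered 3 to 5. Both genotypes were used together, with the pool as a block in the model. Plants were 3 weeks old at the first sampling, were kept at 16 h light and 8 h dark per day, and were sampled 5 h after lights on.

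The 24hr libraries came from the first leaf, 24 h after that leaf had given the pre sample. The recovery libraries came from the second leaf, 24 h after the foil came off and that leaf had given the dark sample. Each of these leaves had therefore been punched 24 h earlier. Recovery was sampled 72 h later than 24hr, so darkness, leaf position and plant age cannot be told apart in this comparison. Total counts were 9690967 to 14159657 in the 24hr libraries and 9580546 to 13884247 in the recovery libraries. The gene IDs of the table were not paired with names, and 0 of them matched the RefSeq table that was used, so genes are given by ID, without a role, and the phytochrome B gene and leaf markers were not looked up.

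Phytochrome B is a red-light receptor that takes up its active form in light and reverts in darkness. Its active form enters the nucleus and promotes the loss of PIF transcription factors, which accumulate in darkness and drive many dark-induced genes. A mature leaf kept in darkness while the rest of the plant is lit loses photosynthetic transcripts and starts a senescence programme, which a return to light can halt. The study is titled for the role of BrphyB in recovery from darkness, and the recovery against 24hr comparison asks what differed from a lit leaf after 1 day of light.

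A sizeable part of the transcriptome differed. Of 23603 genes tested, 4195 (17.8%) passed an adjusted p under 0.05 (quasi-likelihood test of edgeR, Benjamini-Hochberg adjustment). Of these, 2340 (9.91% of the tested genes) were higher and 1855 (7.86%) lower at recovery. The differences were moderate in size. The median log2 fold change was 0.84 in the higher genes and -0.80 in the lower genes, and the quartiles of the absolute values were 0.56 and 1.29 in the first set and 0.55 and 1.24 in the second. A change of at least 1 on the log2 scale was found in 906 of the higher and 667 of the lower genes, and a change of at least 2 in 229 and 166. Over all tested genes the median was -0.01. Without wild-type replicate 5 the test called 2787 genes, and without mutant replicate 5 it called 2457.

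The direction was shared by most pools. Over all tested genes, 3931 (16.7%) moved the same way in 7 of 7 pairs and 841 (3.56%) had values that did not overlap between the 7 recovery and the 7 24hr libraries. The first of these counts splits into 2003 higher (8.49%) and 1928 lower (8.17%), and the second into 448 higher (1.90%) and 393 lower (1.67%). Among the called genes, 1664 of the higher and 1389 of the lower moved the same way in 7 of 7 pairs, and 433 and 382 did not overlap. In single pools, the share of the higher genes that rose went from 92.1% in wild-type replicate 3 to 98.6% in mutant replicate 5, and the share of the lower genes that fell went from 93.3% to 98.8% in the same pools. These shares describe genes chosen on the same libraries and are not a test.

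The called genes held a sizeable part of each library. The higher genes took 12.5% to 15.9% of the counts at 24hr, with a median of 13.1%, and 20.2% to 25.9% at recovery, with a median of 22.2%. The lower genes took 16.2% to 20.2% at 24hr, with a median of 19.6%, and 8.45% to 12.5% at recovery, with a median of 11.3%. The genes were chosen on these libraries, so the gap between the stages follows from their choice and is not a test. At recovery the 3 mutant pools held the highest values of the higher genes and the lowest of the lower genes. At 24hr, mutant replicates 3 and 4 already had the lowest shares of the lower genes (16.2% and 17.1%). The higher genes had their highest 24hr share in mutant replicate 4 (15.9%) and their lowest in mutant replicate 5 (12.5%). The genotypes were not tested on these shares. The library as a whole was no more concentrated at one stage than at the other. The share of counts in the top 20 genes was 12.4% ± 1.69 (SD, n = 7) at 24hr and 12.2% ± 1.27 at recovery. The paired difference was -0.16 ± 1.44 percentage points, less than its own SD (p = 0.781 in a two-sided exact permutation test that flips the signs of the 7 pairs), and turned to 0.23 without wild-type replicate 3.

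Abundant genes were called more often than rare ones. Levels are given as CPM, that is, read counts normalised for library size. Of the 102 genes with a mean of at least 1000 CPM over the 14 libraries, 46.1% passed, 22 higher and 25 lower. Of those 47 genes, 39 had fallen in darkness, 19 of the higher and 20 of the lower. That is 83.0% of them, where 90 of all 102 genes of that level (88.2%) and 33.1% of all tested genes had fallen in darkness. The changes of the 47 genes were small, with a median log2 fold change of 0.58 in the higher and -0.63 in the lower genes, and 8 of the 47 changed by at least 1. The share of genes called fell to 31.0% at 100 to 1000 CPM, 21.8% at 10 to 100, 12.5% at 1 to 10 and 6.67% under 1 CPM. The median absolute change of the called genes rose along that order, from 0.59 to 2.05.

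The pools differed in how far these changes were shared. Across the tested genes, the change from 24hr to recovery correlated between every pair of pools, with Pearson's r from 0.22 to 0.61 and a median of 0.30 over 21 pairs of pools, none of which shares a library. The genes of a library are not independent, so no p is given. The closest were mutant replicates 3 and 5 (r = 0.61), wild-type and mutant replicate 4 (r = 0.60), and wild-type and mutant replicate 5 (r = 0.54). The lowest value, 0.22, was between wild-type replicates 3 and 5. The median r was 0.29 within the wild type, 0.32 within the mutant, 0.30 between differently numbered pools of the genotypes and 0.54 between same-numbered pools, a group of 3 pairs of which 1 had an r of 0.26.

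Dark against pre served to sort the genes by their response to darkness. That contrast uses none of the 14 libraries compared here, but it comes from the same plants and sets the same 2 leaves against each other. It called 15723 of 23843 genes (65.9%), 7889 raised and 7834 lowered. Of the 4195 genes that differed at recovery, 3007 had changed in darkness. That is 71.7% of them, where 63.9% of all genes tested at recovery had changed in darkness. In 1669 the difference at recovery had the sign of the dark change, and in 1338 it had the opposite sign. Another 1105 had not been called in darkness and 83 had not been tested there. Without wild-type replicate 5 or mutant replicate 5 the count of 3007 was 1906 or 1697.

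Genes that fell in darkness differed from the lit leaf in both directions. Of 7817 dark-lowered genes tested, 1003 (12.8%) were higher at recovery than at 24hr and 912 (11.7%) were lower, both above the shares of 9.91% and 7.86% over all genes. The 1003 genes that ended above the 24hr level had fallen in darkness by a median log2 change of -1.99, and the 912 that ended below it by -1.74. Per pool, the median of the 1003 genes relative to the pool's 24hr level was -2.48 to -1.53 log2 units at dark and 0.48 to 0.83 at recovery. For the 912 genes it was -2.15 to -1.59 at dark and -1.06 to -0.60 at recovery. The dark levels of these groups overlapped, while their recovery levels lay on opposite sides of 24hr, as their choice required. The pre level relative to 24hr had pool medians from -0.18 to 0.53 in the 1003 genes and from -0.24 to 0.07 in the 912. The highest, 0.53 in mutant replicate 5, was above the recovery medians of wild-type replicates 3 and 4 (0.48 and 0.51). The counts of 1003 and 912 fell to 621 and 600 when wild-type replicate 5 was left out, and to 611 and 498 when mutant replicate 5 was.

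**Figure D1:**
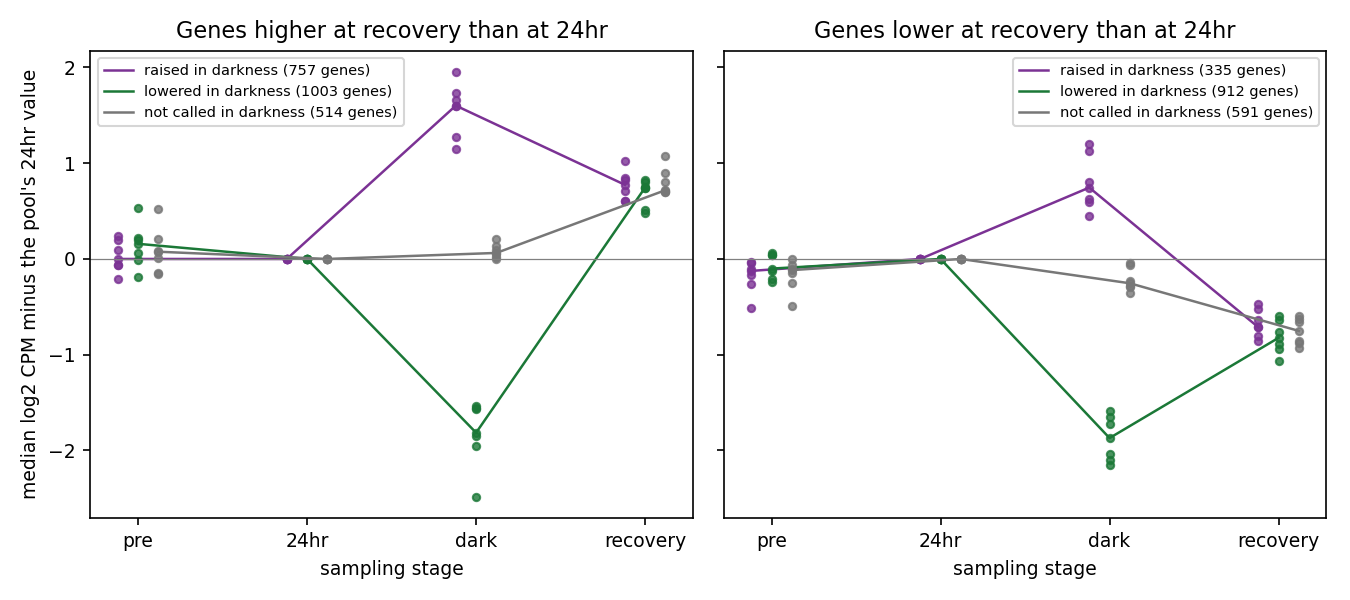
Genes called higher (left) and lower (right) at recovery than at 24hr, split by their response in dark against pre. Each point is the median over the genes of a class in 1 plant pool, as log2 CPM minus the pool's own 24hr value, which is 0 by construction, and lines join the medians over the 7 pools. The 1003 dark-lowered genes on the left pass from below the 24hr level at dark to above it at recovery, while the 912 on the right lie below it at both stages.

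Genes that rose in darkness were called higher about as often as all genes, and lower less often. Of 7265 dark-raised genes tested, 757 (10.4%) were higher at recovery, a share near the 9.91% over all genes, and 335 (4.61%) were lower, against 7.86% over all genes. Of all called genes, 55.8% were higher. Strongly dark-raised genes were low at 24hr, with a median of 3.08 CPM for a log2 rise of 2 to 4. Whether that limited the lower calls was not tested. The count of 757 was 470, 452 and 500 when wild-type replicates 3, 4 and 5 were left out in turn, and 439 when mutant replicate 5 was. The count of 335 was 185 without wild-type replicate 5, 187, 197 and 149 without mutant replicates 3, 4 and 5, and 167 when a dark change of at least 1 was required. The 757 genes had a median log2 rise of 1.56 in darkness and stood 0.89 above 24hr at recovery. The 335 genes had a median rise of 0.99 and stood at -0.68. Among 7808 genes not called in darkness, 514 (6.58%) were higher and 591 (7.57%) lower. Their pool medians at dark were within 0.00 to 0.21 of the 24hr level for the higher set and -0.35 to -0.05 for the lower set, and at recovery they were 0.70 to 1.07 and -0.93 to -0.60.

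The genes were also grouped by the size of their change in darkness. The median difference over genes was between -0.08 and 0.01 log2 units at every size of fall, and 0.03, 0.16 and 0.50 for rises of 1 to 2, 2 to 4 and 4 or more. Here all genes of the dark against pre test were used, because the filter on low counts in the recovery and 24hr libraries kept 237 of the 506 genes with the strongest rise. Values are differences of log2 CPM with a prior count of 2, which holds down the differences of low genes. The 506 genes with a log2 rise of 4 or more had a median level of 0.24 CPM at 24hr, so they had little room below it and the sign of their difference is not a test. The pool medians were 1.15 in wild-type replicate 6, 1.00 in wild-type replicate 4, 0.39 in wild-type replicate 3 and 0 in wild-type replicate 5. In the mutant they were 0.27 in replicate 4, 0.15 in replicate 5 and 0 in replicate 3. The median was above 0 in 5 of 7 pools, and the pools ranged from no difference to 1.15 log2 units, with the highest and a lowest value both in wild-type pools. In 3 of 7 pools, wild-type replicate 5 and mutant replicates 3 and 5, it was below the median for a rise of 2 to 4.

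In the 1498 genes with a rise of 2 to 4, the pool medians were 0.04 to 0.38 and all 7 were above 0. In the 3351 genes with a rise of 1 to 2 they were -0.08 to 0.16. In the 848 genes with a fall of 4 or more they were -0.36 to 0.36, below 0 in wild-type replicates 3 and 4 and mutant replicate 5 and above 0 in the other 4 pools. The 24hr minus pre difference of the same sets gives the drift between the lit samples. Its pool medians were 0 to 0.13 for a rise of 4 or more and 0 to 0.20 for a rise of 2 to 4. For a rise of 2 to 4 the drift was thus below 0 in no pool, and its range overlapped that of the difference at recovery. For a fall of 4 or more it was -0.48 to 0.20, which overlapped the range of the difference at recovery. For a fall of 2 to 4 the drift was -0.32 to 0.14 and the difference at recovery -0.34 to 0.21. For a fall of 1 to 2 they were -0.19 to 0.09 and -0.24 to 0.10. For a fall of 0 to 1 the drift was -0.04 to 0.06, while the difference at recovery was -0.13 to -0.005 and above 0 in no pool. When the wild-type difference was set against the size of the change in the mutant plants, the median for a rise of 4 or more was 0.66 in 456 genes, and the reverse gave 0.18 in 626 genes. Across 23843 genes the difference at recovery and the dark change correlated weakly, with r = 0.16 (Pearson) and rho = 0.12 (Spearman).

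**Figure D2:**
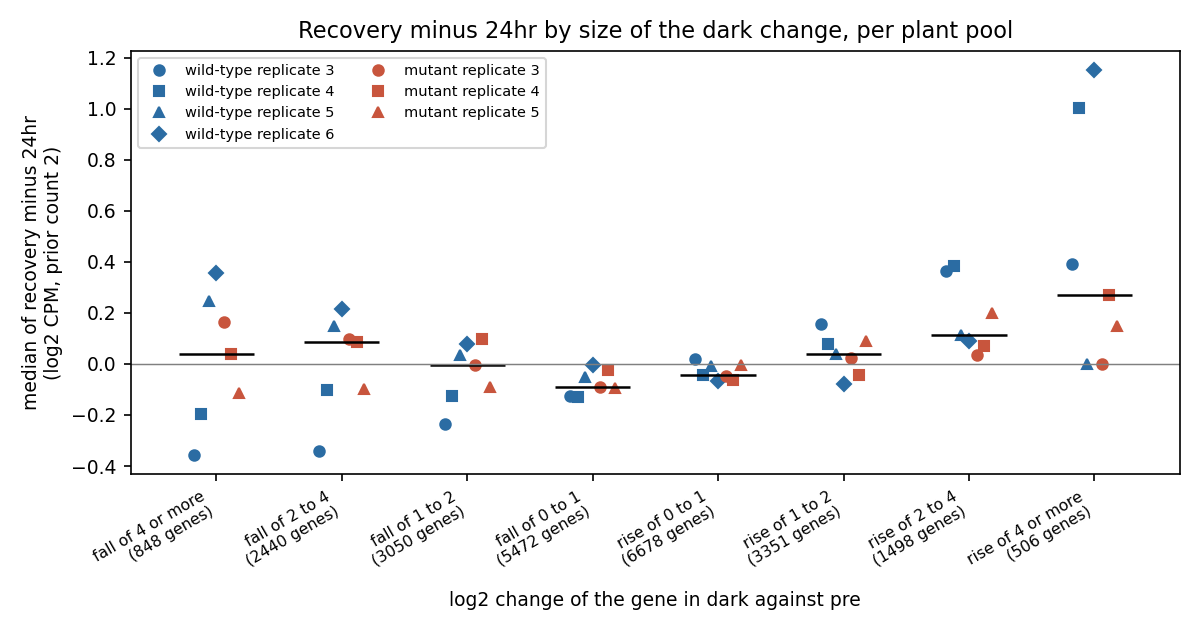
Median difference between recovery and 24hr in each plant pool (log2 CPM with a prior count of 2, vertical axis) for genes grouped by their log2 change in dark against pre (horizontal axis). Points are pools, blue for wild type and red for mutant, and black lines are medians over the 7 pools. The medians for a rise of 4 or more spread from 0 to 1.15, and those for a rise of 0 to 1 lie between -0.07 and 0.02.

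A single number per library gave its position between the pre and the dark libraries. The dark index is the mean log2 CPM of 5066 genes raised in dark against pre by at least 1 on the log2 scale minus that of 6005 genes lowered by as much, all with an adjusted p under 0.05 in that test. It was -1.53 ± 0.33 (SD, n = 7) at 24hr and -1.31 ± 0.29 at recovery, against -1.71 ± 0.24 at pre and 2.57 ± 0.48 at dark. The index genes were chosen on the pre and dark libraries, so the gap between those stages follows in part from that choice. The ranges at 24hr and recovery overlapped. From pre to 24hr the index went from -2.15 to -2.11, -1.78 to -1.51, -1.54 to -1.54 and -1.46 to -1.26 in wild-type replicates 3 to 6. In mutant replicates 3 to 5 it went from -1.78 to -1.78, -1.47 to -1.14 and -1.79 to -1.38. This drift within the uncovered leaf was not taken out of the difference at recovery. Dark against pre sets the second leaf at a later sampling against the first leaf, as recovery against 24hr does. Darkness, leaf position and plant age therefore cannot be told apart in the index. Within pools, recovery minus 24hr was 0.58, 0.53, 0.05 and -0.01 in wild-type replicates 3 to 6 and 0.03, 0.11 and 0.29 in mutant replicates 3 to 5. It was above 0 in 6 of 7 pools, with a mean of 0.23 ± 0.25. The same kind of exact permutation test gave p = 0.0313, where 0.0156 is the lowest it can give, and 0.0938 after Benjamini-Hochberg adjustment over the 6 exact tests made, so it did not pass. Without wild-type replicate 4 the mean was 0.15 and the unadjusted exact permutation p was 0.156. Leaving out wild-type replicate 5 gave a p of 0.0938, and leaving out mutant replicate 4 gave 0.0625 (exact permutation). With the 200 genes of lowest p in each direction as index genes, the difference was 0.49 (exact permutation p = 0.0313).

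The part of the index from raised genes was above 0 in 7 of 7 pools, by 0.16 ± 0.13 (SD), with an exact permutation p of 0.0156, the lowest possible, and 0.0938 adjusted. The part from lowered genes was -0.06 ± 0.15, above 0 in 3 of 7 pools, with an exact permutation p of 0.375 and 0.583 adjusted. As a share of each pool's own rise from pre to dark, the index difference was 5.11% ± 5.67 (SD, n = 7). The share ran from -0.35% in wild-type replicate 6 to 14.6% in wild-type replicate 4, and its mean was 2.92% without that pool. The rise was measured on the libraries that chose the index genes and the index difference was not, so the share depends on that choice. Wild-type pools averaged 6.50% ± 7.29 (n = 4) and mutant pools 3.26% ± 2.78 (n = 3). That gap of -3.23 percentage points, mutant minus wild type, was smaller than the SD of the wild-type pools and larger than that of the mutant pools. A two-sided exact permutation of the genotype labels, with 35 splits, gave p = 0.486 (0.583 adjusted, with 0.0286 as the lowest p the design allows). The gap was -0.63 points without wild-type replicate 4, -2.02 and -5.35 without wild-type replicates 3 and 6, and -2.002 without mutant replicate 3. It was -0.83 with index genes from the other genotype and -5.90 with the 200 genes of lowest p in each direction (exact permutation p = 0.0571).

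**Figure D3:**
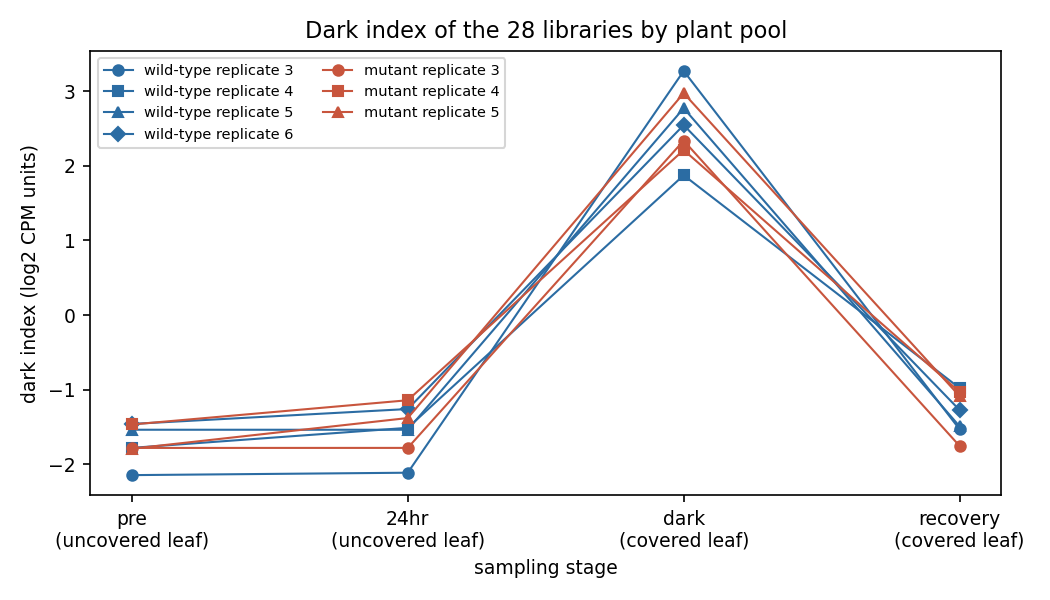
Dark index (vertical axis, log2 CPM units) of each library at the 4 sampling stages, with 1 line per plant pool. The index genes were chosen on the pre and dark libraries, so the gap between those stages follows in part from that choice. All 7 dark libraries lie between 1.87 and 3.27, and the recovery libraries between -1.76 and -0.98, with 4 of the 7 inside the range of the 24hr libraries (-2.11 to -1.14) and 3 above it.

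The changes were then compared between the genotypes, which share no plants and no libraries but were fitted in a single model. The filter and the gene dispersions were common to both, so the calls of the genotypes are not independent. With a stage effect for each genotype, 708 genes (3.00%) passed in the 4 wild-type pairs, 457 higher and 251 lower, and 1122 (4.75%) in the 3 mutant pairs, 669 higher and 453 lower (edgeR, adjusted as above). The balance of directions in the mutant turned with the model, to 431 higher and 476 lower with no replicate block and 667 higher and 745 lower with all 28 libraries in the fit. The test of the difference between genotypes called 0 genes, with a lowest adjusted p of 0.157 and 970 genes at an unadjusted p under 0.05. DESeq2 called 21. The numbers of each genotype hung on single pools. The wild type gave 36 (without its replicate 5) to 137 genes (without its replicate 3) when one of its own pools was left out, and 375 or 448 without mutant replicate 3 or 5. The mutant gave 142, 391 and 1 without its replicates 3, 4 and 5.

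Genes called in one genotype mostly had the same sign of change in the other. Of the 457 genes higher in the wild type, 451 were above 0 in the mutant, where 49.7% of all tested genes were, and their median log2 fold changes were 1.27 and 1.18 in that order. Of the 251 lower genes, 249 were below 0 in the mutant, where 50.3% of all tested genes were, with medians of -1.21 and -1.08. In the other direction, 663 of the 669 genes higher in the mutant and 443 of the 453 lower genes had the same sign in the wild type. Of all tested genes, 49.6% were above 0 and 50.4% below 0 in the wild type. The medians of the mutant's higher and lower genes went from 1.28 to 0.86 and from -1.51 to -0.82. Of the genes higher in the wild type, 290 (63.5%) also passed as higher in the mutant, where 2.83% of all tested genes did. For the lower genes it was 126 (50.2%), where 1.92% of all tested genes did. These 290 and 126 genes were 43.3% and 27.8% of the mutant's higher and lower genes. In the wild type, 1.94% and 1.06% of all tested genes passed as higher and lower. In all, 417 genes passed in both genotypes and 416 of them had the same direction. The calls rest on common dispersions, so the shares that passed in both are not a test. Across all tested genes the changes of the genotypes were related with r = 0.65 (Pearson) and rho = 0.64 (Spearman).

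**Figure D4:**
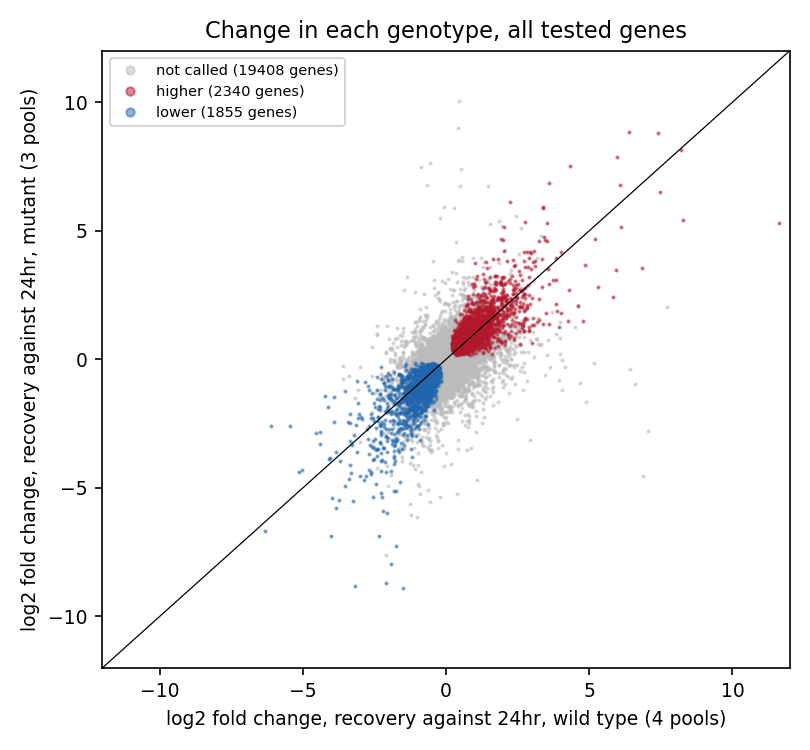
Log2 fold change of recovery against 24hr in the wild type (horizontal axis, 4 pools) and in the mutant (vertical axis, 3 pools) for each of the 23603 tested genes. Colours mark genes called with both genotypes together, 2340 higher and 1855 lower, and the line marks equal change. Coloured genes lie along the line in both directions, and grey points far from it are genes with a large value in 1 genotype that did not pass.

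The choice of lit reference was checked with the pre libraries, which came from the same first leaf a day earlier, at the first sampling of that leaf. Recovery against pre called 3075 of 23488 genes (13.1%), 1776 higher and 1299 lower, in a fit of the same form. It shares the recovery libraries with recovery against 24hr, so its overlap is not given. It called 1993, 2017 and 2048 genes without wild-type replicate 4, mutant replicate 4 and mutant replicate 5. The genes higher at recovery than at 24hr had a median log2 fold change of 0.84 against 24hr and 0.72 against pre. The lower genes had -0.80 against 24hr and -0.66 against pre. These genes were chosen on the recovery libraries, which both contrasts share, so the same sign against pre is not a test. The 24hr and pre libraries themselves differed in 0 of 23429 genes (0%), with 3093 at an unadjusted p under 0.05. DESeq2 called 484 genes here, and edgeR called 171 without a filter on low counts and 0 with RLE scaling, with no block and with all 28 libraries.

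Among called genes, 1746 higher and 1374 lower genes had a mean of at least 10 CPM at one of the stages. Of these, 344 higher and 304 lower genes moved the same way in 7 of 7 pairs and did not overlap between stages. Over all tested genes, 1.90% were higher and 1.67% lower without overlap. The 2 largest changes in each direction are given in full, with the SE derived from the edgeR test statistic. With both genotypes together, each of the 4 genes passed in edgeR and DESeq2, and with any pool left out. They were chosen on the same libraries for passing without overlap, so these repeated passes are not a test. With the genotypes taken singly, BraA07002277 passed in neither (edgeR adjusted p 0.0954 for wild type, 0.0621 for mutant). The other named genes passed in each.

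BraA05004440 was higher in darkness than at pre and above the lit leaf at recovery. At 24hr it had 0 to 0.41 CPM, from 0 to 5 counts. At recovery it had 2.88, 12.1, 2.13 and 47.9 CPM in wild-type replicates 3 to 6 and 0.42, 3.72 and 6.33 CPM in mutant replicates 3 to 5. The stages did not overlap, but the recovery values spread widely, with wild-type replicate 6 highest and mutant replicate 3 lowest. The same pools were highest and lowest in the dark libraries, where wild-type replicate 6 had 110.2 CPM and mutant replicate 3 had 1.30, with 22.5 to 57.9 in the other 5 pools. Among those 5 pools the dark order was not kept. Wild-type replicate 4 had the lowest dark value of them (22.5) and the highest recovery value (12.1). Mutant replicate 4 had the highest dark value (57.9) and 3.72 CPM at recovery. The log2 fold change at recovery was 5.02 with an SE of 0.50 and an edgeR adjusted p of 0.00106, with 4.28 when wild-type replicate 6 was left out, and in dark against pre it was 7.81. With so few counts at 24hr these sizes depend on the prior count.

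BraA01001905 was nearly absent in darkness and above the lit leaf afterwards. At 24hr it had 2.01, 2.24, 0.66 and 0.99 CPM in wild-type replicates 3 to 6 and 2.81, 4.68 and 0.77 CPM in mutant replicates 3 to 5. In the dark libraries it had 0 counts in 6 pools and 2 counts in mutant replicate 4. At recovery it had 13.8, 5.52, 19.8 and 8.31 CPM in the wild type and 46.1, 50.6 and 31.0 CPM in the mutant. All recovery values exceeded all 24hr values, and at recovery the mutant pools lay above the wild-type pools. The log2 fold change was 3.54 with an SE of 0.43 and an edgeR adjusted p of 0.00176. The genotypes had values of 2.93 (wild type) and 4.19 (mutant), and the difference between them had an unadjusted edgeR p of 0.135.

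BraA09005649 was expressed in the lit leaf and was lower in every pool both in darkness and at recovery. At 24hr it had 21.3, 15.4, 21.4 and 32.4 CPM in wild-type replicates 3 to 6 and 3.06, 7.73 and 3.48 CPM in mutant replicates 3 to 5. At recovery it had 1.54, 1.33, 0.20 and 2.86 CPM in the wild type, and 1, 0 and 0 counts in the mutant. The genotypes did not overlap at 24hr or at recovery, with the mutant lower at each. The log2 fold change was -4.45 with an SE of 0.48 and an edgeR adjusted p of 0.00131. For the wild type alone it was -4.04 and for the mutant -6.89, the second resting on those counts near 0, and the difference had an unadjusted edgeR p of 0.0464. In dark libraries it had at most 2 counts.

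This gene lay in the longest run of consecutive IDs called in 1 direction, a run of 5 IDs of the A09 series, which was singled out after its values were seen. The 5 genes fell by log2 fold changes between -4.45 and -1.02, with edgeR adjusted p-values from 0.000991 to 0.0343, each in at least 6 of 7 pairs. Their courses in darkness differed. The dark against pre log2 fold change was -2.85, -7.53, 1.17 and 1.19 in the first 4 genes of the run, and -1.60 in the last, which did not pass (edgeR adjusted p 0.303). The third gene had the highest level, with a mean of 65.3 CPM in the pre libraries, 111.2 in 24hr, 141.9 in dark and 12.3 in recovery. Whether the 5 genes share sequence, which could divide or mix their counts, was not tested.

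BraA07002277 was high and variable in the lit leaf. At 24hr it had 14.2, 34.7, 121.0 and 62.3 CPM in wild-type replicates 3 to 6 and 101.6, 25.9 and 325.5 CPM in mutant replicates 3 to 5. At recovery it had 3.49, 3.71, 0.61 and 5.90 CPM in the wild type and 0.51, 6.42 and 2.07 CPM in the mutant. The stages did not overlap, although the 24hr values alone differed widely within each genotype. The log2 fold change was -4.36 with an SE of 0.84 and an edgeR adjusted p of 0.0093. Against pre, where it had 29.9 ± 16.4 CPM (SD, n = 7), the log2 fold change of recovery was -3.28. Its mean dark level of 10.2 ± 8.20 CPM lay between the means of 24hr and recovery. In wild-type replicate 4 and mutant replicate 4 the dark values of 2.95 and 2.62 CPM were below those of recovery. In the other pools they were above.

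**Figure D5:**
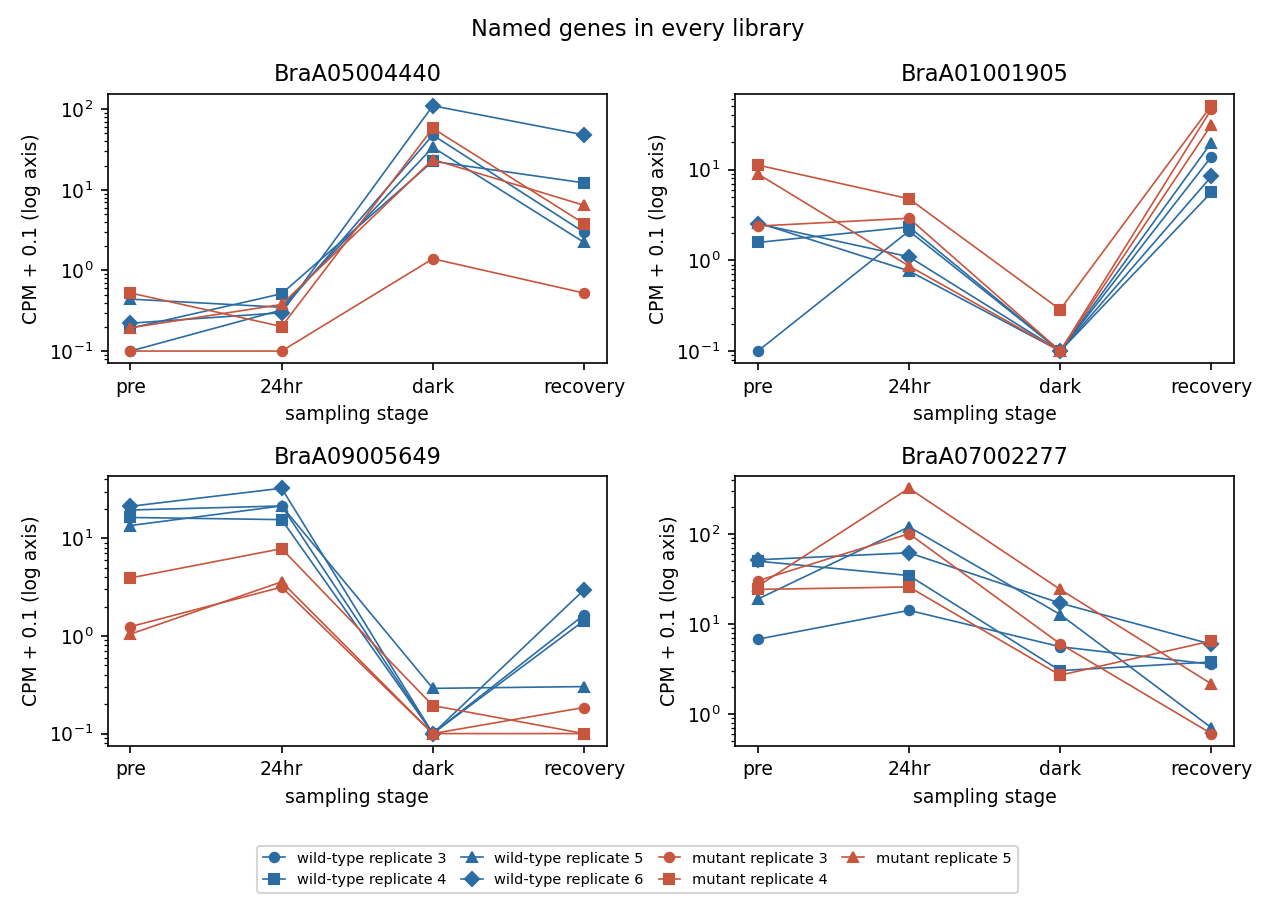
CPM plus 0.1 on a log axis for the 4 genes in every library, by sampling stage, with 1 line per plant pool, blue for wild type and red for mutant. In each panel the 7 recovery values lie apart from the 7 24hr values, above them for BraA05004440 and BraA01001905 and below them for BraA09005649 and BraA07002277, while in each pool the dark value lies above that of 24hr for BraA05004440 and below it for the other genes.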

How the data were processed

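Libraries from poly(A)-selected RNA were read as single reads of 80 bases, per the labels' protocols. The deposited table holds raw counts per gene ID, whole numbers with no normalization. The submitters' processing notes name bcl2fastq 2.17.1.14, Trimmomatic 0.36, Bowtie2 and HTSeq. Genome build, annotation and strand setting are not given in the sources used here, so counts of near-identical, overlapping or antisense genes are uncertain.

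Analyses used R 4.3.3 and edgeR 4.0.16. The 7 recovery and 7 24hr libraries were filtered with filterByExpr, scaled by TMM and fitted with the plant pool and the stage as terms, which left 6 residual degrees of freedom. Benjamini-Hochberg adjustment of p-values ran over all tested genes. The common biological coefficient of variation was 0.294. Other contrasts were fitted in the same way on their own 14 libraries. CPM use TMM factors over all 28 libraries. Checks on simulated counts preceded the tests, and there DESeq2 made a larger share of false calls than edgeR. Those counts were drawn from dispersions and means estimated by edgeR, with far fewer changed genes than were called here. The share of false calls therefore does not carry over to these data. Alternatives were DESeq2 1.42.0, RLE scaling, no filter, no block, all 28 libraries and each pool left out.

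Pool pairing comes from the labels' protocols, since same-numbered libraries of a genotype came from the same plants. Deviations from group means correlated within pools with a median of 0.149 (range -0.227 to 0.555) and between other pools with a median of -0.0337. Nothing in the labels links pools across genotypes beyond their number. Named genes were the 2 largest changes in each direction with an adjusted p under 0.05, at least 10 CPM at a stage, the same direction in 7 of 7 pairs and no overlap. The comparison, gene classes and rules were chosen with earlier results of these data known. Intervals from counts cover counting error only.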

Additional observations from a re-analysis of the deposited data

How the results depend on the processing

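The count for recovery against 24hr was 4165 with RLE scaling, 3744 with no filter, 5348 with DESeq2, 3726 with no replicate block and 4133 with all 28 libraries, and 2457 to 3581 with 1 pool left out. Of the 4195 genes, 1816 passed in the same direction in all 12 of these settings. Leaving out a pool gave 36 to 677 genes in the wild type, 1 to 1012 in the mutant, 0 to 2 for their difference (970 at an unadjusted p under 0.05 with all pools), 1993 to 2603 for recovery against pre, 0 to 8 for 24hr against pre and 1697 to 2499 called genes that had changed in darkness. DESeq2 gave 1985 genes in the wild type, 2374 in the mutant, 21 for their difference and 484 for 24hr against pre. With no filter these last 2 counts were 2 and 171. The cause was not tested, apart from the smaller number of libraries when a pool is left out.

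Without the replicate block the index difference was 0.225 with an unadjusted exact permutation p of 0.200, against 0.0313 with pools paired, and the block moved no total count of genes by over 1.5 times. Of the counts by direction, it moved the higher genes of the mutant from 431 to 669. The index difference was 0.165 (exact permutation p 0.0781) with no minimum on the dark change and 0.193 (p 0.0938, exact permutation) with index genes from the other genotype. It was 0.490 (p 0.0313, exact permutation) with the 200 genes of lowest p in each direction and 0.270 (p 0.0156, exact permutation) with a prior count of 0.5, and it ranged from 0.148 to 0.279 with 1 pool left out. The share of counts in the most abundant genes changed sign to 0.391 with 5 genes in place of 20, and ranged from -0.508 to 0.234 with 1 pool left out. Of the genes under 1 CPM, 6.67% passed, with a median absolute log2 change of 2.05, and what could be detected at that level was not tested.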

Other observations

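Few called genes lay at or under 3 counts in every library of 1 stage. This number depends on the cut. BraA05004440, with 0 to 5 counts at 24hr and a mean of 10.8 CPM at recovery, was outside it. Of the genes higher at recovery, 12 had at most 3 counts in each 24hr library, and the highest of them reached a mean of 6.40 CPM at recovery. Of the genes lower at recovery, 12 had at most 3 counts in each recovery library, and the highest had 3.81 CPM at 24hr. Of the first 12, 4 had been raised in darkness and 8 were not tested there. Of the second 12, 3 had been lowered and 1 raised in darkness, 2 were not called and 6 were not tested there.

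The calls were spread over all series of gene IDs. The share called ran from 16.5% in the scaffold series and 16.9% in A08 to 19.0% in A04, beside 17.8% over all genes. The higher genes made up 50.2% of the calls in A04 and 59.6% in A07. Of higher genes whose next ID was also tested, 12.9% had a next ID that was higher too, where 9.96% of all such IDs had one. For lower genes the share was 12.2% against 7.96%. There were 9 runs of at least 3 consecutive higher IDs and 10 of lower IDs, with the longest at 4 and 5 IDs. Shared sequence between neighbours was not tested.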
